A study of Mus musculus with 10 samples.

Results

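Scavenger receptors are surface proteins that take up chemically modified lipoproteins, such as oxidized low-density lipoprotein. Those followed here in mouse aorta were Msr1, Marco, Cd36, Scarb1, Cd68, Olr1, Scarf1, Stab1 and Cxcl16, and Cd5l, which codes for a secreted protein. They were taken by gene symbol as a list, with earlier results of these data known, and they are 10 of the 22180 genes measured. Each of the 10 was measured by 1 probe set, a group of short probes that together report 1 transcript.

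RNA of whole aortas was measured on Affymetrix arrays (Mouse Gene 2.0 ST), and the values are log2 signals per probe set and array. Male mice on a C57BL/6 background, all without apolipoprotein E (ApoE), were put on a high fat diet at the age of 8 weeks and kept on it for 3 weeks, until their aortas were taken at 11 weeks. In 5 of the mice ApoE alone was deleted (ApoE KO), and the other 5 came from a cross that also lacked interleukin 17 (IL-17; ApoE/IL-17 double KO). Apolipoprotein E helps clear lipoproteins from the blood, and mice without it accumulate cholesterol in plasma and form arterial plaques. IL-17 is an inflammatory cytokine made by T cells and some innate lymphocytes. The question put by the design is how the early hyperlipidemic aorta differs when IL-17 is missing. Both deletions were present throughout the body, no mouse with intact ApoE was compared here, and a whole aorta mixes smooth muscle, fibroblasts, endothelium, blood cells and attached fat. The protocol text of the ApoE KO samples lists wild-type and caspase-1 deficient animals and does not mention IL-17, so the groups may have been handled as separate experiments. No source used here gives a scan date or a batch, and batch and genotype cannot be told apart.

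The receptors are grouped into classes by the structure of their outer parts. Class A receptors (Msr1, Marco) carry a collagen-like stalk and are made mainly by macrophages. Class B receptors (Cd36, Scarb1) cross the membrane at both ends. Cd36 takes up oxidized lipoproteins and long-chain fatty acids, whereas Scarb1 transfers cholesteryl esters from high-density lipoprotein. The remaining members are the lysosomal glycoprotein Cd68, the lectin-like Olr1 (LOX-1) of endothelium and macrophages, the endothelial receptor Scarf1, the large multidomain receptor Stab1 of sinusoidal endothelium and resident macrophages, and Cxcl16, a membrane-bound chemokine that also binds oxidized lipoproteins. A macrophage that internalizes more modified lipoprotein than it can export becomes a foam cell, the hallmark cell of the early plaque.

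Array medians ran from 5.76 to 6.03, and those of the double KO arrays were all higher. To judge dim signals, 1411 olfactory, vomeronasal and taste receptor genes served as a reference, since most are silent outside sensory tissue. The 95th percentile of their mean levels was 5.78, called the receptor gene level below. Their own median difference, double KO minus ApoE KO, was 0.29, and 420 of them passed the test as higher and 12 as lower. Dim genes as a class were therefore read as higher in the double KO. Between pairs of arrays, values correlated across genes at 0.986 to 0.993 within the ApoE KO, at 0.986 to 0.992 within the double KO and at 0.970 to 0.987 between groups. The targeted genes gave a limited check of the labels. Apoe averaged 6.31 ± 0.16 (SD, n = 5) in the ApoE KO and 6.98 ± 0.17 (SD, n = 5) in the double KO, with an adjusted p of 0.00114 in limma. Il17a lay below the receptor gene level in all arrays, at 4.41 and 4.66 on average (limma adjusted p = 0.0726). No source used here says where these probes lie relative to the deleted parts.

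The scavenger receptors did not move as a block. Olr1 and Marco were higher in the double KO, Stab1 and Scarf1 were lower, and the other 6 did not pass the test. The test was limma's moderated test, two-sided, with Benjamini-Hochberg adjustment over all 22180 genes and a threshold of 0.05. Over all genes, 6721 passed it, which is 30.3% in either direction, with 22.8% higher and 7.53% lower. The scaling set that split: 5050 genes were higher and 1671 lower as deposited, 1982 and 2479 after quantile normalization, 1669 and 5641 with arrays centred on their median, and 481 and 5072 with arrays centred on the median of the receptor genes. The 4 of 10 members called are read against that share. The median difference of the 10 members was -0.22 on the log2 scale, and that of all genes was 0.10. Groups did not overlap in 3 members (Marco, Stab1 and Scarf1), against 20.4% of all genes. With that last scaling, chosen after seeing the data, 1 member was called higher (Olr1) and 5 lower.

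**Figure D1:**
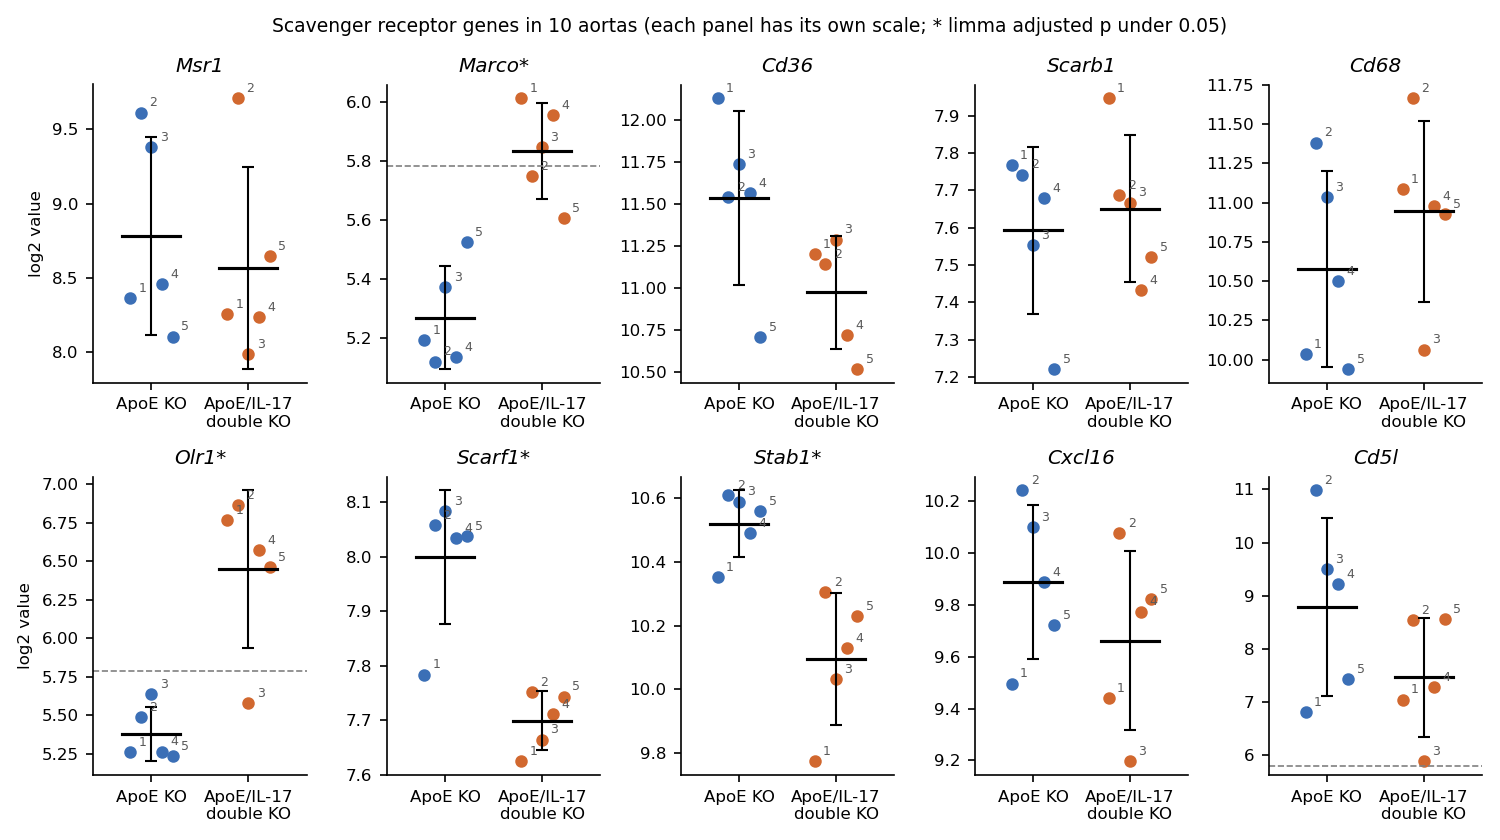
Each panel plots 1 scavenger receptor gene, with the log2 value on the vertical axis and 1 numbered point per aorta (ApoE KO replicates 1 to 5 in blue, ApoE/IL-17 double KO replicates 1 to 5 in orange). Horizontal bars are group means, whiskers are SD, the dashed line is the receptor gene level of 5.78, and asterisks mark limma adjusted p under 0.05; the groups are separate in Marco, Scarf1 and Stab1, and in Olr1 except for double KO replicate 3 at 5.58.

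The 3 promoters below belong to Olr1 and Marco, the 2 members that were higher, and to Stab1, one of those that were lower; no promoter of Scarf1 is printed. They run from 250 bases before to 50 bases after the annotated start, 5′ to 3′ along the gene's strand, and come from RefSeq (assembly GRCm38.p6), where 6 of the 10 members had an entry. Capitals mark the PU.1 core GAGGAA (or TTCCTC, its other strand) and the AP-1 site TGANTCA. PU.1, coded by Spi1, is the master factor of macrophage genes, and AP-1 is a dimer of Jun and Fos proteins.
Olr1, chr6:129507116-129507415, minus strand: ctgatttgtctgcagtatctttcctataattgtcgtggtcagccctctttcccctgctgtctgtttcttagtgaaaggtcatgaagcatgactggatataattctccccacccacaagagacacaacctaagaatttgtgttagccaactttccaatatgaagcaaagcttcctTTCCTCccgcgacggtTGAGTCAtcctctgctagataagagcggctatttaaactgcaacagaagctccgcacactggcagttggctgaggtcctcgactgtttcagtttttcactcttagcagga
Marco, chr1:120504975-120505274, minus strand: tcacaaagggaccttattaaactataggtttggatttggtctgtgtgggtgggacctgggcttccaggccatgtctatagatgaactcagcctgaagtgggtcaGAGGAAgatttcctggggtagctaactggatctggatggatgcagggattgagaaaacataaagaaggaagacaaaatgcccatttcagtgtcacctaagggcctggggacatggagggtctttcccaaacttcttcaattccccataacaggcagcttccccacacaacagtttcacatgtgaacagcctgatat
Stab1, chr14:31168592-31168891, minus strand: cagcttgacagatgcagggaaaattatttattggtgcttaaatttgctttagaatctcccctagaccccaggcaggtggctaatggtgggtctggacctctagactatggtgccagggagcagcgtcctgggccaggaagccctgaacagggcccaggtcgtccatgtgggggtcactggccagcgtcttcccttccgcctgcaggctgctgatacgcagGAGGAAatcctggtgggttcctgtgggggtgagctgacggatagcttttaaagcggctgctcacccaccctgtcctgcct
The Olr1 window holds TTCCTC at -76 and TGAGTCA at -60 relative to its start, and the matches do not overlap. The Marco window holds GAGGAA at -146, and the Stab1 window holds it at -30. Of 32851 RefSeq promoters of this length, 28.3% held the PU.1 core on either strand and 7.81% the AP-1 site. Among the 6 members with an entry, 5 held the PU.1 core (Marco, Cd5l, Olr1, Cd68 and Stab1) and 2 the AP-1 site (Olr1 and Cd68). The KLF-type box CACCC was in 57.5% of promoters and in the same 5 members. An NF-kB half-site pair and the direct repeats read by PPAR/RXR and LXR/RXR matched none of the 6 windows, at 4.59%, 0.0396% and 0.0152% of all promoters. A higher and a lower member thus shared the commonest of these letters, and a match is a description of the sequence, not a bound site.

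Olr1 codes for LOX-1, the main receptor for oxidized low-density lipoprotein on endothelium, a lectin-like protein that inflammatory signals induce. Its values in ApoE KO replicates 1 to 5 were 5.26, 5.49, 5.64, 5.26 and 5.23. In the double KO they were 6.77, 6.86, 5.58, 6.57 and 6.46. Of the 5 double KO aortas, 4 lay above every ApoE KO aorta, and replicate 3 lay inside the ApoE KO range. The mean was 5.38 ± 0.18 (SD, n = 5) in the ApoE KO and 6.45 ± 0.51 (SD, n = 5) in the double KO. The difference was 1.07 on the log2 scale (SE 0.21, 95% confidence interval 0.61 to 1.53), or 2.10-fold, with a limma adjusted p of 0.00396. No ApoE KO array, and 4 of 5 double KO arrays, exceeded the receptor gene level. Of the 8976 genes whose ApoE KO mean lay below that level, 37.6% were called higher, which is the background for Olr1 and for Marco. Relative to the median of all genes, the Olr1 difference was 0.97 as deposited and 0.88 after quantile normalization. Centring on the receptor genes left that value at 0.97. The difference itself was 0.87 after quantile normalization and 0.75 after centring on the receptor genes, and it passed the test in both.

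Marco, a macrophage receptor for bacteria, particles and acetylated lipoprotein, lay near the receptor gene level. Values in the ApoE KO were 5.19, 5.12, 5.37, 5.13 and 5.52. Values in the double KO were 6.01, 5.75, 5.85, 5.96 and 5.61. Every double KO aorta was above every ApoE KO aorta, although replicate 5 of each group lay only a little apart. The means were 5.27 ± 0.18 and 5.83 ± 0.16 (SD, n = 5 each), a difference of 0.57 (SE 0.10, interval 0.34 to 0.80), or 1.48-fold (limma adjusted p = 0.00289). Only 3 of the 10 arrays, all double KO, exceeded the receptor gene level. Marco was the single called member whose call was lost under another scaling: centred on the receptor genes, its difference was 0.25 and its adjusted p 0.22 in limma.

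Msr1, the founding class A receptor and a major route of modified lipoprotein into macrophages, did not pass the test. It read 8.37, 9.61, 9.38, 8.46 and 8.10 in the ApoE KO. It read 8.26, 9.71, 7.98, 8.23 and 8.65 in the double KO. Replicate 2 was highest in both groups, and the ranges overlapped almost fully. The difference was -0.22 (SE 0.36, limma adjusted p = 0.669). Its 95% interval ran from -1.01 to 0.57, so a lower level and a moderately higher one were both within the error. With 1 array left out the difference ran from -0.50 to -0.01, none called.

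Stab1 codes for stabilin-1, which clears acetylated lipoprotein and extracellular debris. It read 10.35, 10.61, 10.59, 10.49 and 10.56 in the ApoE KO. It read 9.77, 10.31, 10.03, 10.13 and 10.23 in the double KO. All 5 double KO aortas were below all 5 ApoE KO aortas, with double KO replicate 1 lowest. The means of 10.52 ± 0.10 and 10.09 ± 0.21 (SD, n = 5 each) differed by -0.43 (SE 0.10, interval -0.65 to -0.20). Stab1 was thus 1.34-fold lower in the double KO, with a limma adjusted p of 0.0101. Among 12980 genes with both group means at or above the receptor gene level, 10.8% were called lower, the background for Stab1 and Scarf1.

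Scarf1, also called SREC-I, was found as a receptor for acetylated lipoprotein on endothelial cells. It read 7.78, 8.06, 8.08, 8.03 and 8.04 in the ApoE KO. It read 7.62, 7.75, 7.66, 7.71 and 7.74 in the double KO. The groups did not overlap, but ApoE KO replicate 1 came within a few hundredths of the highest double KO value. The means of 8.00 ± 0.12 and 7.70 ± 0.05 (SD, n = 5 each) differed by -0.30 (SE 0.07, interval -0.46 to -0.14), which is 1.23-fold lower (limma adjusted p = 0.0111). This was the smallest of the 4 called differences.

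Resident macrophage and endothelial marker genes were read beside Stab1 and Scarf1. For each of 18 cell type lists, a marker level was computed per array as the mean over the list's measured genes. The resident macrophage level was 9.85 ± 0.14 (SD, range 9.73 to 10.06) in the ApoE KO and 9.47 ± 0.19 (SD, range 9.26 to 9.76) in the double KO. An exact permutation test gave p = 0.016, adjusted to 0.048 over the 18 lists. The level also passed after quantile normalization (-0.38, adjusted exact permutation p = 0.041) and after centring arrays on their median (-0.59, adjusted 0.020). Of the list's 10 genes, 4 were called lower and 0 higher, against 7.53% and 22.8% of all genes. The level kept its sign but lost its pass in 8 of 10 fits with 1 array left out, all except those without ApoE KO replicate 4 or double KO replicate 2 (differences of -0.46 to -0.33, adjusted p up to 0.071 over the 10). The lower genes were the haptoglobin-hemoglobin receptor Cd163 (-0.81), the chemokine Pf4 (-0.78), which platelets also carry, the clotting factor subunit F13a1 (-0.44), and the folate receptor Folr2 (-0.36). Cd163 is itself a scavenger receptor. The endothelial level was 9.80 ± 0.09 and 9.65 ± 0.15 (SD; exact permutation p = 0.063, adjusted 0.11). The endothelial difference was -0.16 as deposited and -0.36, with a pass, after centring arrays on their median (exact permutation p adjusted to 0.020). Of its 12 genes, Tek (-0.46) and Pecam1 (-0.28) were among 3 called lower, and Flt1 (0.27) was called higher. No gene of either list had both means below the receptor gene level. From high to low, the ApoE KO replicates ran 2, 3, 5, 4, 1 in Stab1 and 3, 2, 5, 4, 1 in Scarf1. There the resident macrophage level ran 3, 1, 5, 2, 4 and the endothelial level 2, 3, 4, 5, 1. In the double KO, Stab1, Scarf1 and the dendritic level ran 2, 5, 4, 3, 1. The resident macrophage level ran 2, 4, 3, 5, 1 and the endothelial level 2, 5, 4, 1, 3. The part of these cell types in the Stab1 and Scarf1 differences was not tested, and in bulk tissue fewer cells of a type and less RNA per cell cannot be told apart.

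Cd36, the fatty acid and oxidized lipoprotein receptor, was far above the receptor gene level in every array. It read 12.13, 11.54, 11.74, 11.56 and 10.71 in the ApoE KO. It read 11.20, 11.14, 11.29, 10.72 and 10.52 in the double KO. Of the 5 ApoE KO aortas, 4 were above every double KO aorta, and ApoE KO replicate 5 lay within the double KO range. The difference was -0.56 (SE 0.24, interval -1.08 to -0.04), or 1.48-fold, and did not pass the test (limma adjusted p = 0.0924). Without ApoE KO replicate 5 it was -0.77 and passed (limma adjusted p = 0.012). Centring arrays on their median also gave -0.77 and a call (limma adjusted p = 0.025), whereas quantile normalization gave -0.52 and no call (limma adjusted p = 0.15).

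Cd36 followed fat markers from aorta to aorta. Ranked from high to low, its ApoE KO replicates ran 1, 3, 4, 2, 5 and its double KO replicates 3, 1, 2, 4, 5. White adipocyte and brown adipocyte marker levels gave exactly those orders in both groups. The white adipocyte level ranged from 9.02 to 10.61 in the ApoE KO and from 8.83 to 10.01 in the double KO, with ApoE KO replicate 5 lowest in its group. The difference between its group means, 9.83 ± 0.59 and 9.43 ± 0.48 (SD, n = 5 each), did not pass the test (exact permutation p = 0.28, adjusted 0.38). None of the 10 white adipocyte genes was called, against 30.3% of all genes, and their median difference was -0.50. The capillary endothelial level ran in the same order in the ApoE KO and in nearly the same order in the double KO. Cd36 is abundant in adipocytes and capillary endothelium as well as in macrophages, and the part of fat in its difference was not tested.

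Scarb1 (SR-BI), the high-density lipoprotein receptor, did not pass the test. It read 7.77, 7.74, 7.55, 7.68 and 7.22 in the ApoE KO. It read 7.95, 7.69, 7.67, 7.43 and 7.52 in the double KO. The ranges overlapped, and ApoE KO replicate 5, lowest in Cd36, was lowest here too. The difference was 0.06 (SE 0.12, interval -0.21 to 0.33; limma adjusted p = 0.739), and its sign turned when arrays were centred on their median (-0.15) or on the receptor genes (-0.26).

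**Figure D2:**
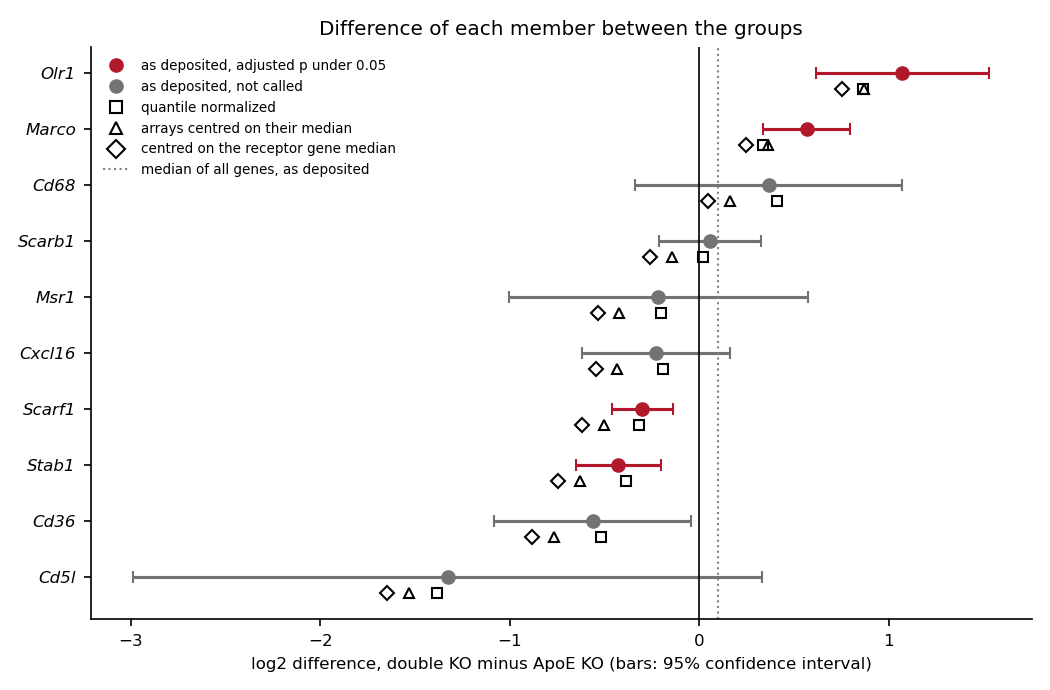
The horizontal axis is the log2 difference, double KO minus ApoE KO, and each row is 1 member, with the deposited values as filled points and bars of 95% confidence intervals (red where limma's adjusted p is under 0.05, grey otherwise). Open symbols give the same difference under 3 other scalings and the dotted line is the median of all genes at 0.10; Olr1 runs from 0.75 to 1.07 across the scalings, and Cd5l has the widest interval, from -2.99 to 0.33.

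Cd68, the lysosomal glycoprotein widely used to stain macrophages, read 10.03, 11.38, 11.03, 10.50 and 9.94 in the ApoE KO. It read 11.08, 11.67, 10.06, 10.98 and 10.93 in the double KO. In the ApoE KO the values spread over 1.44 log2 units, and in the double KO replicate 3 stood below the rest of its group. The difference was 0.37 (SE 0.32, interval -0.34 to 1.07; limma adjusted p = 0.403). It ran from 0.18 without double KO replicate 2 to 0.59 without double KO replicate 3, and it was 0.05 with arrays centred on the receptor genes, none of them called.

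Cxcl16 serves as a receptor for phosphatidylserine and oxidized lipoprotein in its membrane form and, once shed by Adam10, attracts cells carrying Cxcr6. It read 9.50, 10.24, 10.10, 9.89 and 9.72 in the ApoE KO. It read 9.44, 10.08, 9.20, 9.77 and 9.82 in the double KO. The groups overlapped, and the difference of -0.23 (SE 0.18, interval -0.62 to 0.16) did not pass the test (limma adjusted p = 0.347). With 1 array left out it ran from -0.33 to -0.11. It was called under 1 setting, centring on the receptor genes (-0.55, limma adjusted p = 0.040).

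Cd5l, or AIM, is a protein that lipid-laden macrophages secrete and that lengthens their survival. It read 6.80, 10.98, 9.50, 9.21 and 7.43 in the ApoE KO. It read 7.04, 8.54, 5.88, 7.28 and 8.55 in the double KO. This was the widest spread of any member, 4.19 log2 units in the ApoE KO and 2.68 in the double KO. The lowest double KO value, replicate 3, was just above the receptor gene level, and 3 ApoE KO aortas were above every double KO aorta. The means of 8.79 ± 1.68 and 7.46 ± 1.13 (SD, n = 5 each) differed by -1.33, a 2.51-fold lower geometric mean. With an SE of 0.76 and an interval from -2.99 to 0.33, the difference did not pass the test (limma adjusted p = 0.200). It was -0.78 without ApoE KO replicate 2 and -1.82 without ApoE KO replicate 1, and neither was called. Centring on the receptor genes gave -1.65 and a call (limma adjusted p = 0.034).

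Msr1, Cd68, Cxcl16 and Cd5l varied together within groups, beside markers of macrophages and of other cell types. In the ApoE KO, Msr1, Cd68 and the macrophage marker level all ran from high to low as replicates 2, 3, 4, 1, 5, and Cxcl16 and Cd5l as 2, 3, 4, 5, 1. In the double KO, Msr1, Cd68, Cxcl16, Cd5l, Olr1 and the macrophage level were all lowest in replicate 3. Replicate 2 was highest in each of them except Cd5l, where replicate 5 (8.55) was above replicate 2 (8.54). The macrophage level was 9.27, 9.97, 9.80, 9.45 and 9.25 in the ApoE KO and 9.15, 9.92, 8.72, 9.28 and 9.35 in the double KO. The difference between its group means, 9.55 ± 0.33 and 9.28 ± 0.43 (SD), did not pass the test (exact permutation p = 0.31, adjusted 0.40). It was -0.26 as deposited and -0.47 after centring arrays on their median, without a pass (adjusted exact permutation p = 0.14). Of its 16 genes, 1 was called lower, Aif1 (-0.52, limma adjusted p = 0.0298), and 0 higher, against 7.53% and 22.8% of all genes. The median difference of the 16 genes was -0.31, and none had both means below the receptor gene level. T cell and dendritic marker levels gave the same ApoE KO order as Msr1 and Cd68. The endothelial level had the order of Cxcl16 in both groups, and that of Cd5l in the ApoE KO. Double KO replicate 3 was also lowest in the monocyte, endothelial, platelet, B cell, T cell and neutrophil levels, so these orders are not particular to macrophage genes. Olr1 and Cd68 had the same order of replicates in the double KO, and Stab1 and Scarf1 also shared one (2, 5, 4, 3, 1).

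**Figure D3:**
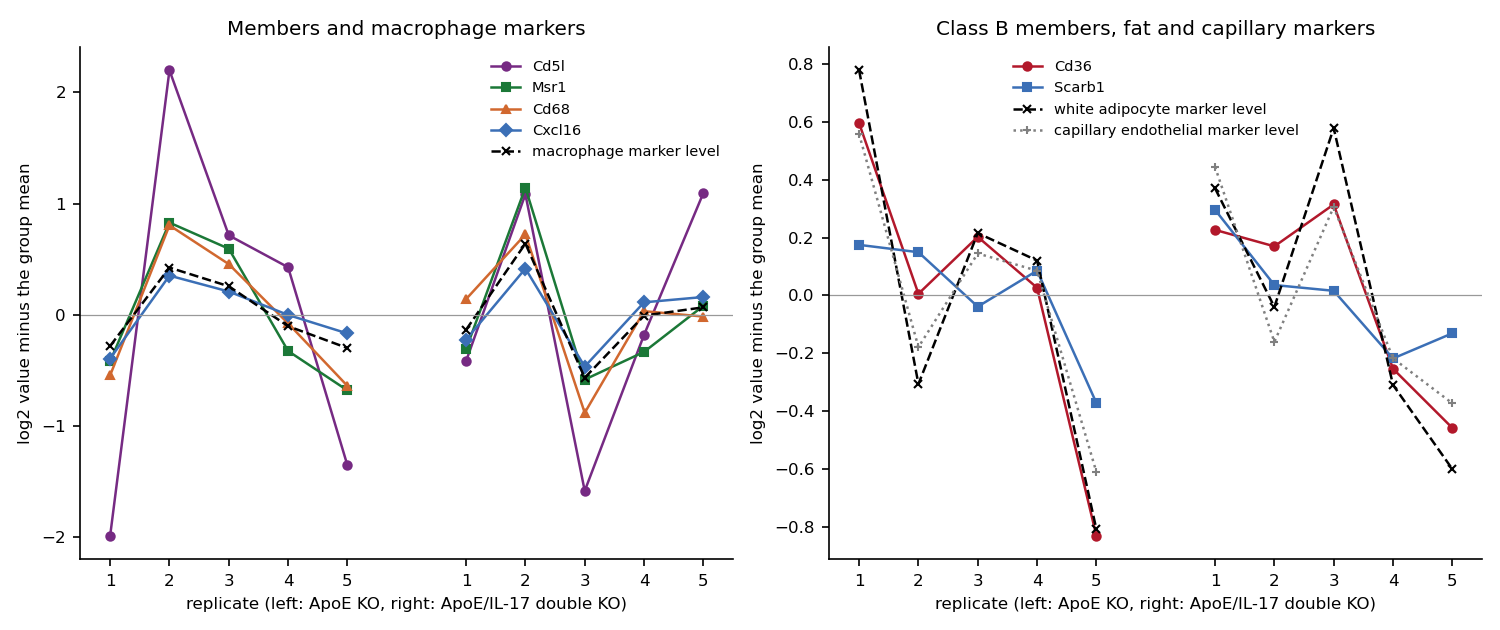
Both panels plot log2 values minus the group mean (vertical axes) for replicates 1 to 5 of the ApoE KO at left and the double KO at right. In the left panel Cd5l, Msr1, Cd68 and Cxcl16 follow the macrophage marker level (dashed), with double KO replicate 3 lowest; in the right panel Cd36 follows the white adipocyte marker level (dashed), with ApoE KO replicate 5 lowest, and Scarb1 and the capillary endothelial marker level are shown beside them.

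For each member brighter than the receptor gene level, the genes most like it over the 10 arrays were found among 13573 others. The measure was the mean absolute difference of values centred on group means and scaled to unit SD, which is smaller for more similar genes and had medians of 1.01 to 1.11 over the candidates. Closest to Cd36 were Abcd2 (0.12), a peroxisomal fatty acid transporter of adipose tissue, Elovl3 (0.14), a fatty acid elongase that is also in the brown adipocyte list, and the monocarboxylate transporter Slc16a1 (0.14). Closest to Cd68 were the cytokine Il1a (0.08), the foam cell receptor Trem2 (0.11), itself a macrophage marker, and Cotl1 (0.11). Closest to Msr1 were Lpxn, Coro7 and the phagosomal metal transporter Slc11a1, all at 0.15. Closest to Cd5l were Nceh1 (0.18), the neutral cholesterol ester hydrolase, Lima1 (0.20) and Smc4 (0.21).

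The remaining members were compared in the same way. Cxcl16 lay nearest to Pnrc2 (0.15), Olfr111 (0.15) and Frrs1 (0.16). Stab1 lay nearest to Cybc1 (0.14), the lysosomal fucosidase Fuca1 (0.15) and Fndc3b (0.17). Scarf1 lay nearest to Celsr1 (0.16), Myl6 (0.20) and Lamtor3 (0.20). Olr1 lay nearest to Sharpin (0.19), Pbdc1 (0.20) and Fam234b (0.25), and Scarb1 to Dyrk1b (0.25), A230072E10Rik (0.26) and Art1 (0.30). Among the members themselves the closest pair was Cd68 and Cxcl16 (0.34), followed by Msr1 with Cd68 (0.36) and Cd5l with Cxcl16 (0.37). Many genes outside the list were closer. Placed among the candidates, Cxcl16 would rank 231 for Cd68, Cd68 would rank 249 for Msr1, and Cxcl16 would rank 158 for Cd5l. All 10 arrays enter both the group means and these distances, so they describe these aortas only.

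The genes that flank the 4 called members were also read, 3 on each side in the RefSeq order of GRCm38.p6. Olr1 sits on chromosome 6 among C-type lectin receptors. Of its 6 neighbours 3 were called lower and 1 higher, against 7.53% and 22.8% of all genes. Clec1b, the platelet podoplanin receptor CLEC-2, fell from 8.71 to 6.62 (difference -2.09, SE 0.28, limma adjusted p = 0.00053). Clec1a differed by -0.51 (limma adjusted p = 0.016), and Clec7a, the fungal glucan receptor dectin-1, by -0.55 without a call (limma adjusted p = 0.42). The autophagy gene Gabarapl1 was lower (-0.38) and Tmem52b higher (0.37). Olr1 was thus higher beside lectin genes that were lower or not called. Of 10 platelet marker genes 8 were called lower, Clec1b among them. Itgb3 was called higher (0.42), and Selp (-0.01) was not called. Their marker level was 9.21 ± 0.14 in the ApoE KO and 8.19 ± 0.20 in the double KO (SD, exact permutation p = 0.0079, the smallest 10 arrays allow, adjusted 0.036). Around Marco on chromosome 1, only Celrr was called (0.27, limma adjusted p = 0.036), and around Stab1 on chromosome 14 0 of 6 were called. Around Scarf1 on chromosome 11, Prpf8 was lower (-0.23) and 4931413K12Rik higher (0.32).

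Most other scavenger receptors did not pass the test. Of 19 further receptors measured, 1 was called lower and 0 higher, which is 5.26% called against 30.3% of all genes, and their median difference was 0.05. The exception was Cd163, which macrophages use to take up hemoglobin. It read 8.27, 7.94, 8.34, 8.05 and 8.18 in the ApoE KO. It read 7.29, 7.63, 7.25, 7.31 and 7.24 in the double KO. The groups did not overlap, and the difference of -0.81 (SE 0.10, limma adjusted p = 0.000383) amounts to 1.76-fold lower. The class A relatives Scara3 (-0.09), Scara5 (-0.17) and Colec12 (0.14), the lysosomal class B protein Scarb2 (0.05), Scarf2 (0.12) and the lipoprotein receptor Lrp1 (0.17) were not called. Stab2, the paralogue of Stab1, was at 5.30 and 5.48, below the receptor gene level in both groups.

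Of 22 measured coreceptors and signaling partners, 2 were called higher and 3 lower, with a median difference of -0.10. These shares, 9.09% higher and 13.6% lower, compare with 22.8% and 7.53% of all genes. Tlr4, which signals with Cd36, was higher by 0.30 (SE 0.07, limma adjusted p = 0.0101), and its 5 ApoE KO arrays lay between 8.14 and 8.21 against 8.34 to 8.59. Itgb5, the integrin subunit that pairs with Cd36 in the uptake of dying cells, was higher by 0.27. Adam10, the sheddase that releases Cxcl16, was lower by 0.31 on the log2 scale, and its groups overlapped in 1 pair of near-equal values (10.21 and 10.22). Cd47, which like Cd36 binds thrombospondin, was lower (-0.27). The Cd47 call was lost after quantile normalization (limma adjusted p = 0.072) and in 7 of 10 fits with 1 array left out. The Adam10 call was lost in 3 of 10 such fits. The higher calls of Tlr4 and Itgb5 were lost with arrays centred on their median (0.09 and 0.06; limma adjusted p = 0.38 and 0.65). Centred on the receptor genes, both differences turned slightly negative (-0.02 and -0.05). Leaving out 1 array removed the Itgb5 call in 9 of 10 fits, all but that without ApoE KO replicate 5, and the Tlr4 call in 0 of 10.

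Of 18 genes of lipid loading and export, 1 was called lower and 0 higher (5.56% called, against 30.3% of all genes), with a median difference of -0.22. It was Mylip (Idol), which marks the low-density lipoprotein receptor for degradation and is a target of LXR (-0.40, SE 0.10, limma adjusted p = 0.016). The cholesterol exporters Abca1 (-0.09) and Abcg1 (-0.24), the lipid droplet protein Plin2 (-0.31), and Lpl (-0.12) and Fabp4 (-0.14) were not called. Lpl, Fabp4 and Plin1 also stand in the white adipocyte list.

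Of 17 measured transcription factors that govern scavenger receptors or cholesterol export, 5 were called lower and 1 higher, with a median difference of -0.17. The share called was 35.3%, against 30.3% of all genes, and the share lower 29.4%, against 7.53% of all genes and 10.8% of those above the receptor gene level. Nr1h3, coding for LXR alpha, the oxysterol receptor that induces cholesterol efflux, read 8.02, 8.05, 7.89, 7.73 and 7.68 in the ApoE KO. It read 7.43, 7.76, 7.53, 7.26 and 7.37 in the double KO. Double KO replicate 2 lay above ApoE KO replicates 4 and 5, and the difference was -0.40 (SE 0.11, limma adjusted p = 0.016). Its partner Rxra (-0.26), the fatty acid sensor Ppard (-0.20), the endothelial flow-responsive factor Klf2 (-0.59, SE 0.16, limma adjusted p = 0.017) and the macrophage factor Maf (-0.27) were also lower. Mitf was higher by 0.20, and that sign turned when arrays were centred on their median (-0.01) or on the receptor genes (-0.12). The calls of Maf, Ppard and Mitf were lost after quantile normalization (limma adjusted p = 0.055, 0.071 and 0.078) and in 7, 8 and 8 of 10 fits with 1 array left out. Nr1h3 and Klf2 kept theirs in all 10 fits, and Rxra in 9. Pparg (-0.11), a driver of Cd36 in macrophages and adipocytes, Spi1 (-0.15), Jun (-0.19) and Rela (-0.13) did not pass the test.

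Across these 4 lists 13 of 76 measured genes were called, 3 higher and 10 lower, or 17.1% against 30.3% of all genes. Single arrays mattered to this count: without ApoE KO replicate 3 it was 6, without ApoE KO replicate 2 or double KO replicate 1 it was 7, and without ApoE KO replicate 4 or double KO replicate 3 it was 8. Centring arrays on their median gave 30, all lower.

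**Figure D4:**
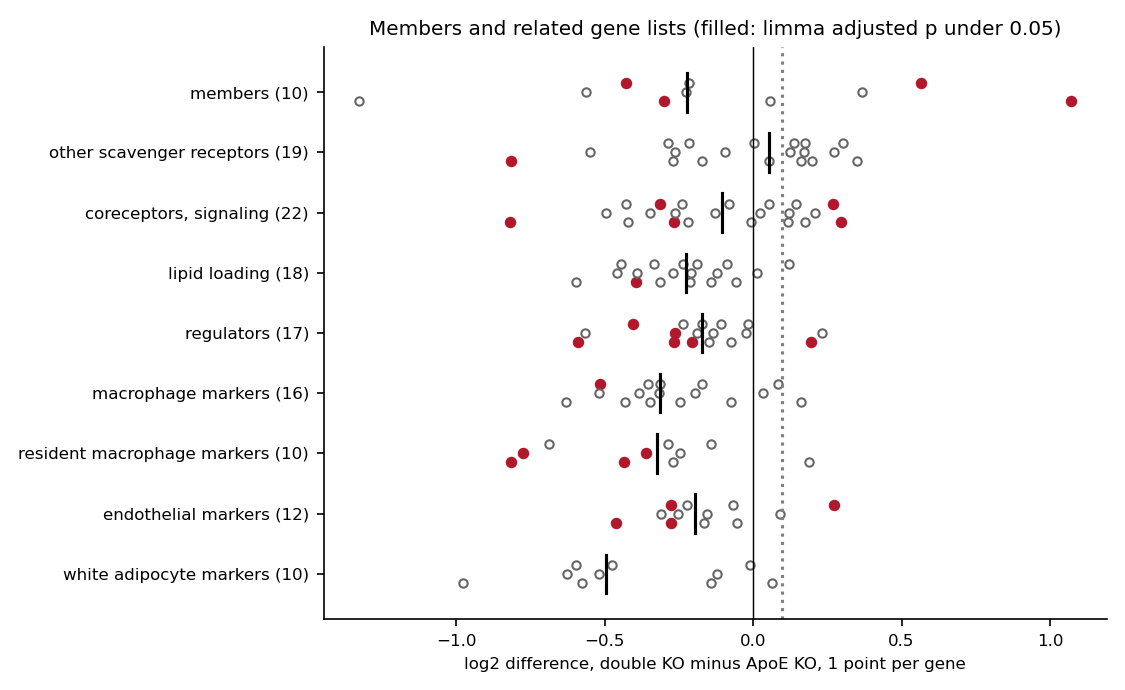
The horizontal axis is the log2 difference, double KO minus ApoE KO, with 1 point per gene in rows for the 10 members, the 4 related lists and 4 marker lists; gene counts stand in brackets. Filled red points passed limma's test at an adjusted p under 0.05, black bars are list medians and the dotted line is the median of all genes at 0.10; Olr1 at 1.07 lies farthest right of all points shown, and the medians of the members (-0.22), lipid loading genes (-0.22) and macrophage markers (-0.31) lie left of the dotted line.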

How the data were processed

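Per the labels' protocols, RNA of 10 aortas was labeled and read on Affymetrix arrays (Mouse Gene 2.0 ST). The authors deposited 1 log2 value per probe set and array; the base of the log was inferred from their range. How signals were corrected, normalized and summarized is not given in the sources used, and limma is listed, with no role, per the submitters' processing notes. Of 41345 probe sets, 23521 had 1 gene symbol in the platform annotation, 1814 had several and were not used, and 16010 are unnamed here; symbols were checked against RefSeq (GRCm38.p6). Where a gene had several probe sets (1082 genes), that of highest mean was kept, leaving 22180 genes.

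Groups came from the sample titles, which number 5 biological replicates each. Genes were tested with lmFit and eBayes (limma 3.58.1, R 4.3.3) with a term for group alone, no filter on dim genes and Benjamini-Hochberg adjustment over all genes. On simulated data this recovered 97% of genes changed by 1 log2 unit and 100% of those changed by 2, with 13 false calls among 22180 genes. The simulation changed only a small set of genes and had no shift of dim genes or array medians between groups. Changes smaller than 1 log2 unit were not simulated. These rates are therefore not estimates for the real arrays. Marker levels were tested with two-sided exact permutation tests over 252 assignments, adjusted over 18 lists. Precision is limited by the number of arrays. The members and gene lists were chosen with earlier results of these data known. All members are named, with, for each related list, up to 6 called genes of smallest p, and for each marker list up to 3 genes of smallest p; 1 result is not reported here; values given for other list genes were chosen after they were seen. Alternatives were other scalings, filters on dim genes, probe set averaging, other variance models, a replicate block and leaving out each array.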

Additional observations from a re-analysis of the deposited data

Results flagged for a closer look

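In Scarf1, ApoE KO replicate 1 read 7.78, apart from the other ApoE KO aortas, the nearest of which read 8.03. In Cd163, double KO replicate 2 read 7.63, above the nearest at 7.31. The cardiac muscle marker level of ApoE KO replicate 4 was 6.88 and that of double KO replicate 2 was 7.73 (nearest 7.09). The skeletal muscle marker level of ApoE KO replicate 2 was 6.47, against 5.46 in the nearest aorta. In each case the gap to the nearest aorta, divided by the range of the group of 5, exceeded Dixon's 95% critical value of 0.71. These were 5 of 82 groups of values examined, and chance alone flags about 1 in 20.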

How the results depend on the processing

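Olr1, Stab1 and Scarf1 kept their direction and their call under all 20 alternatives (differences of 0.75 to 1.29, -0.75 to -0.35 and -0.62 to -0.28). Relative to the deposited values, the median of all genes moved by -0.12 after quantile normalization, -0.20 after centring on array medians and -0.32 after centring on the receptor genes. The genes called, 6721 as deposited (75.1% higher), numbered 4461 after quantile normalization (44.4% higher), 3419 without the dimmest 40%, 3969 without genes at the receptor gene level, and 5056 to 7022 with 1 array left out; the cause was not tested beyond the fewer genes in both filters. Members called numbered 4 to 5 with 1 array left out. Genes called in the 4 related lists numbered 13, then 30 and 33 after centring on array medians and on the receptor genes, and 6 to 18 with 1 array left out. Marker lists that passed numbered 6, and 3 to 6 with 1 array left out, the fewest without double KO replicate 3, 4 or 5; the lists that lost their pass are resident macrophage (8 of 10 fits), cardiac muscle (9) and neutrophil (5). Among genes, signs turned for Scarb1 (-0.15 and -0.26 after centring on array medians and receptor genes, -0.034 without ApoE KO replicate 5, -0.015 without double KO replicate 1; range -0.034 to 0.11 with 1 array left out), Mitf (-0.0095 and -0.12 after the same 2 centrings), Tlr4 (-0.023) and Itgb5 (-0.051, both after centring on the receptor genes); the fibroblast marker level also turned (0.17 to -0.04, array medians); the cause was not tested.

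Deviations of same-numbered replicates from their group means correlated at -0.13 to 0.26. ApoE KO replicates 1, 2 and 5 correlated most with the double KO replicate of their own number, replicate 3 with 2, and replicate 4 with 3. The sample titles state no pairing, and whether the numbers mark pairs was not tested. With the replicate number as a block, 6594 genes and 5 members were called, Cd36 among them (-0.56, limma adjusted p = 0.014). Cd36 was also called with array weights (-0.65, limma adjusted p = 0.041). Marco could not be tested without the dimmest 40% of genes.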

Other observations

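Blood cell markers fell in the same arrays. Over all genes, 7.53% were called lower and 22.8% higher. All 7 measured red cell genes were called lower, with a marker level of 8.10 ± 0.23 in the ApoE KO and 6.56 ± 0.12 in the double KO (SD, n = 5 each; exact permutation p = 0.0079, adjusted 0.036). B cell genes (4 of 9 lower) and neutrophil genes (6 of 10 lower) also had lower levels (exact permutation p = 0.0079, adjusted 0.036, for each). With 1 array left out, red cell and B cell levels passed in all 10 fits, and the neutrophil level in 5, failing in each fit without a double KO array (adjusted exact permutation p up to 0.071). T cell genes had 4 of 9 called lower, and their level of 8.05 ± 0.93 and 6.80 ± 0.49 (SD) did not pass the test (exact permutation p = 0.056, adjusted 0.11).

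Of 8 cardiac muscle genes, 4 were called higher, against 22.8% of all genes. Their level was 6.53 ± 0.20 in the ApoE KO and 7.12 ± 0.36 in the double KO (SD, exact permutation p = 0.016, adjusted 0.048). The difference of 0.59 lost its pass after quantile normalization (0.46, adjusted exact permutation p = 0.054), after centring on array medians (0.38, adjusted 0.091) and in 9 of 10 fits with 1 array left out, all but that without ApoE KO replicate 4. Smooth muscle genes had 3 of 8 called higher, among them the desmin gene Des (0.54). Fibroblast genes had 2 of 8, the collagen gene Col1a1 (0.41) and the proteoglycan gene Lum (0.44), which is near the share of all genes. The smooth muscle and fibroblast levels each had an exact permutation p of 0.024, adjusted 0.054. Both passed after quantile normalization (smooth muscle 0.30, adjusted exact permutation p = 0.041; fibroblast 0.20, adjusted 0.029). Centring on array medians took the smooth muscle difference from 0.27 to 0.07 (adjusted 0.59) and turned the fibroblast difference from 0.17 to -0.04 (adjusted exact permutation p = 0.69). Monocyte, capillary endothelial and skeletal muscle genes had 0 called in limma, lymphatic endothelial genes 1 lower (Mmrn1, -0.83), brown adipocyte genes 1 higher (Dio2, 0.62), and dendritic genes 1 higher (Zbtb46, 0.23) and 1 lower (Cd209a, -0.41).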
